A study of Saccharomyces cerevisiae with 10 samples.

Results

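This account covers budding yeast (Saccharomyces cerevisiae) lacking SUA5 after 12 rounds of restreaking on plates, compared with the wild-type strain BY4742. Of the 10 arrays in the series, 6 belong to this comparison by their labels: 3 clones of the deletion at the 12th restreaking, which the labels put at 300 generations after sporulation, and 3 wild-type cultures. The other 4 arrays are deletion clones at the first restreaking, labelled 35 generations, and are used here to ask what differed between early and late passage. Every deletion clone is described as a spore dissected from BY4743 and as MAT a, and the deletion is the 1 manipulation the labels give. BY4742 is a MAT alpha laboratory strain, so mating type differs between the groups as well as SUA5, and the wild-type cultures carry no stated number of restreakings. Deletion, mating type and passage therefore cannot be told apart in this comparison. All 10 cultures were grown in liquid YPD, a rich glucose medium, and harvested in mid-log phase, and total RNA was hybridised to Affymetrix yeast arrays. The labels number the clones and cultures of a group but do not say how clones were derived at the 12th restreaking, so p-values measure the spread between these samples.

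Sua5 catalyses the first step in making t6A, a modified adenosine next to the anticodon of tRNAs that read codons beginning with A. It makes an activated threonylcarbamoyl adenylate, which the KEOPS complex (Kae1, Bud32, Cgi121, Pcc1 and Gon7) transfers to tRNA in the cytoplasm and Qri7 transfers in mitochondria. The gene was first found through suppressors of an aberrant upstream start codon in CYC1, and the protein has also been described as binding single-stranded telomeric DNA. Serial restreaking is the usual way to follow yeast telomere mutants over many generations, because loss of telomerase shows itself only slowly.

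Intensities are in the units of the deposited files. On the 6 arrays the 95th percentile of 1746 probe sets for another yeast, Schizosaccharomyces pombe, lay between 10.8 and 17.5, and this was taken as the background limit of each array. Between 97.7% and 99.0% of the 5449 S. cerevisiae genes lay above it, and the median tested gene read between 602 and 660. A fold change below is on the log2(intensity + 16) scale, which understates the change of dim genes. A gene is called where limma, fitted to the 6 arrays and all 5449 genes, gave an adjusted p below 0.05 after Benjamini-Hochberg adjustment.

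SUA5 read 5.22, 4.93 and 2.18 in the 3 late clones and 506, 522 and 532 in wild type. All 3 deletion arrays lay below the background limit and the groups did not overlap, a difference of at least 45.4-fold (limma adjusted p = 1.15e-12). The labels of the 6 arrays and the level of the deleted gene thus go together. Among the genes on either side of SUA5 on chromosome VII, ROK1, an RNA helicase gene for ribosome assembly, was 1.77-fold lower (limma adjusted p = 2.58e-08), and HUR1 was 1.30-fold lower with overlapping arrays (limma adjusted p = 0.0181). That call for HUR1 was lost without 12th clone 3 (adjusted p = 0.0682) or wild-type culture 1 (adjusted p = 0.0865). SPO74 (adjusted p = 0.186) and PMR1 (adjusted p = 0.507) were not called. These neighbours were chosen after their values were seen.

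The remaining t6A genes differed little. KAE1, the catalytic subunit of KEOPS, was 1.32-fold higher, at 1612, 1632 and 1618 against 1214, 1166 and 1306 (limma adjusted p = 1.41e-05). QRI7, its mitochondrial relative, was 1.26-fold lower and TCD2, one of the enzymes that cyclise t6A, was 1.31-fold lower. PCC1, BUD32 and TCD1 were called higher by 1.10 to 1.16-fold, and each of these calls was lost when array medians were set equal. CGI121 and GON7 were not called. In all, 4 of the 9 measured genes of t6A synthesis were called higher and 3 lower, SUA5 included, beside 41.1% higher and 37.2% lower over all genes tested. With array medians set equal 1 was higher and 4 lower, and with quantile normalization 1 and 5.

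Genes of the mating types separated the groups completely. All 8 a-specific genes were higher in the deletion strain and all 6 alpha-specific genes were lower, with median log2 differences of 3.77 and -5.09. HMRA1, which encodes the a1 repressor subunit, read 532, 587 and 616 at the 12th restreaking and 0.877, 1.04 and 3.15 in wild type. The wild-type values were all under the background limit, and the difference was at least 40.7-fold (limma adjusted p = 9.87e-13). The a-factor precursor gene MFA2 read 1702, 1508 and 1629 against 48.9, 33.5 and 36.9, or 29.4-fold higher. The alpha-factor receptor gene STE2 was 22.9-fold higher, MFA1 19.4-fold, the a-agglutinin gene AGA2 9.63-fold, the a-factor exporter gene STE6 8.69-fold, the alpha-factor protease gene BAR1 8.12-fold and ASG7 2.09-fold.

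In the other direction, the alpha-factor gene MF(ALPHA)1 read 10.7, 12.6 and 5.31 at the 12th restreaking against 5280, 5360 and 5388 in wild type. Of these deletion arrays 2 were under the limit, and the fold of 211 depended on the constant added before the logarithm, being 533 with 1 and 73.6 with 64. MF(ALPHA)2 was 144-fold lower, HMLALPHA1 at least 84.7-fold, the a-factor receptor gene STE3 22.0-fold, AFB1 12.2-fold and the alpha-agglutinin gene SAG1 6.12-fold. These levels are those of a MAT a strain set against a MAT alpha strain. HO, the mating-type switching endonuclease gene, was also lower, at 101, 82.8 and 77.6 against 886, 931 and 980 (9.23-fold, limma adjusted p = 1.47e-11).

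Genes that both mating types use in the pheromone response were mostly lower. Of 30 measured, 17 were lower and 5 higher, with a median log2 difference of -0.36 against 0.03 over all genes. The agglutinin anchor gene AGA1 read 277, 193 and 250 against 1973, 2027 and 1688 (7.51-fold lower, limma adjusted p = 2.58e-10). FAR1, which arrests the cycle on pheromone, was 5.38-fold lower, the fusion gene FUS1 4.96-fold and the desensitising regulator gene SST2 2.87-fold. Here and below, members that went against their list, or stood alone in not being called, were chosen after their values were seen. The 5 that were higher here were PRM5 (2.03-fold), STE50 (1.67-fold), MSG5 (1.51-fold), PRM4 (1.36-fold) and PRM2 (1.22-fold). The call of PRM2 was lost under both other scalings and that of PRM4 with quantile normalization (adjusted p = 0.238), which left 3 higher.

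BY4743 is heterozygous for deletions of MET17 (also called MET15) and LYS2, and its spores can inherit either allele. MET17, the homocysteine synthase gene, read 96.9, 30.6 and 8.09 at the 12th restreaking and 4192, 4176 and 4381 in wild type. All 3 late clones thus lay far below wild type but also differed from each other. The 84.9-fold difference was called (limma adjusted p = 1.45e-08). LYS2 read 53.7, 29.3 and 10.8 against 11.1, 17.4 and 10.9, low in both groups. It was not called (adjusted p = 0.0585), but was without 12th clone 3 (adjusted p = 0.00103) or wild-type culture 2 (adjusted p = 0.0465). At the first restreaking the clones fell into pairs for both genes: clones 1 and 2 read at most 15.3 for MET17 and 15.6 for LYS2, and clones 3 and 4 read 4898 and 4662 for MET17 and 2953 and 2890 for LYS2. HIS3 was 2.56-fold higher than in wild type, LEU2 was not called (adjusted p = 0.0575, but 0.0246 without 12th clone 3 and 0.0118 without wild-type culture 1), and URA3 lay under the limit on all 6 arrays. The part of these marker differences in other results was not tested.

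Across the genome the groups differed at most genes. Of 5449 genes tested, 4267 were called (78.3%), with 2242 higher (41.1%) and 2025 lower (37.2%) at the 12th restreaking. Arrays of the 2 groups did not overlap at 4347 genes (79.8%). The larger differences were mostly rises, with 532 genes called at least 2-fold higher (9.76%) and 156 at least 2-fold lower (2.86%). These counts were 431 and 224 with array medians set equal and 375 and 235 with quantile normalization. Of the genes called, 52.5% were higher. With array medians set equal 1882 were higher and 2404 lower, and with quantile normalization 1818 and 2324. These scalings moved the median of all genes from 0.03 to -0.08 and -0.07, so the balance of small differences follows the scaling. The deposited values were scaled to a trimmed mean of 500.2 on every array, while the median of all probe sets ran from 89.7 to 93.3 in the late clones and from 60.6 to 63.96 in wild type. Calls also varied with brightness. Of genes reading 50 to 200 on average, 58.2% were higher and 20.5% lower, and of genes at 1000 or above, 26.3% were higher and 58.2% lower. In bulk cultures, fewer cells of a kind and less RNA per cell cannot be told apart.

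**Figure D1:**
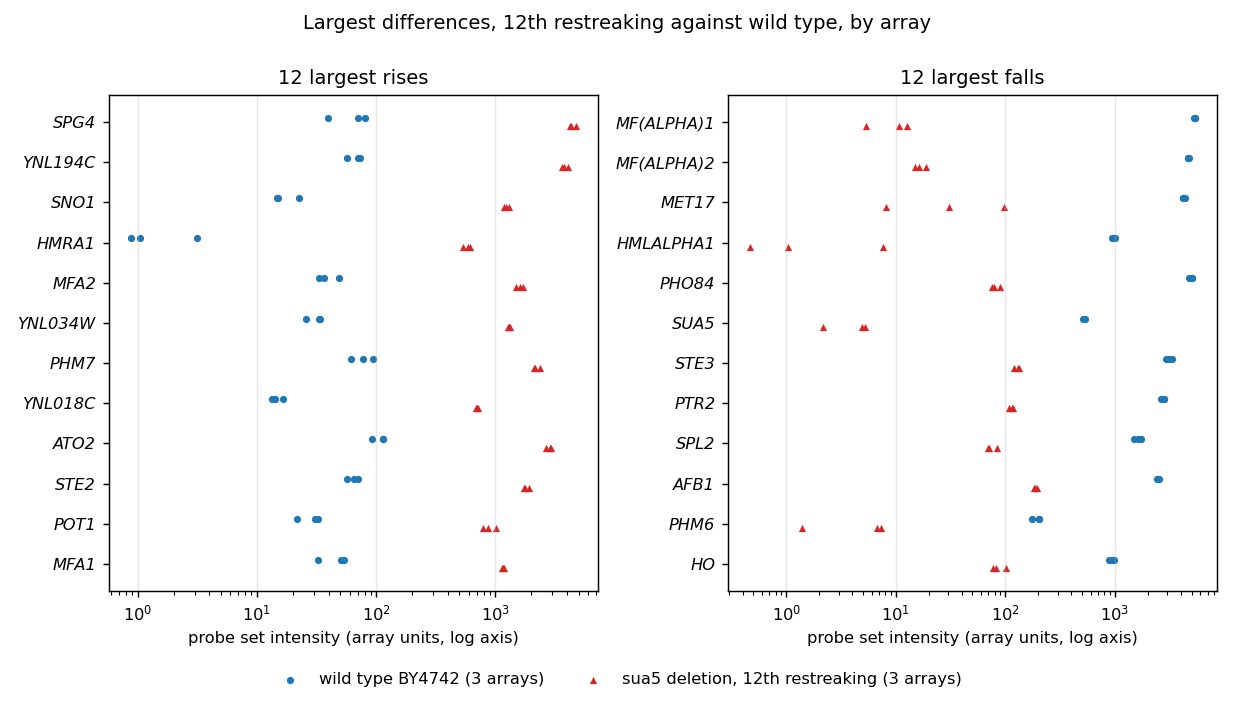
Probe set intensity on each array (log axis, array units) for the 12 genes with the largest rises and the 12 with the largest falls, in wild type (circles, 3 arrays) and at the 12th restreaking (triangles, 3 arrays). Only called genes without overlap were eligible for this figure, so the separation seen here follows from the selection. MET17 ranges from 8.09 to 96.9 among the 12th clones.

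The largest rise was in SPG4, a gene needed for survival at high temperature in stationary phase, which read 4283, 4753 and 4238 against 71.2, 39.2 and 81.2. This was 57.1-fold (log2 5.84 ± 0.16, SE, limma adjusted p = 1.44e-11). YNL194C, which encodes a membrane protein of the Sur7 family, read 3626, 4090 and 3784 against 72.9, 56.9 and 70.3, 46.7-fold higher. The groups were far apart for both genes, which were dim in wild type and bright in the deletion strain. SNO1, a pyridoxine synthesis gene induced as cells enter stationary phase, was 37.8-fold higher, and PHM7, a membrane protein gene, 24.1-fold. The paralogous genes YNL034W and YNL018C were 28.3-fold and 23.5-fold higher, and the probe set of YNL034W is of a kind that can also read relatives. ATO2, a putative ammonium exporter gene, was 23.1-fold higher and POT1, the peroxisomal thiolase gene, 20.5-fold. Apart from mating genes, SUA5 and MET17, the largest falls were in PHO84 (51.0-fold), the peptide transporter gene PTR2 (21.3-fold), SPL2 (17.8-fold) and PHM6 (at least 16.9-fold). PTR2 read 116, 109 and 118 against 2817, 2787 and 2649.

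**Figure D2:**
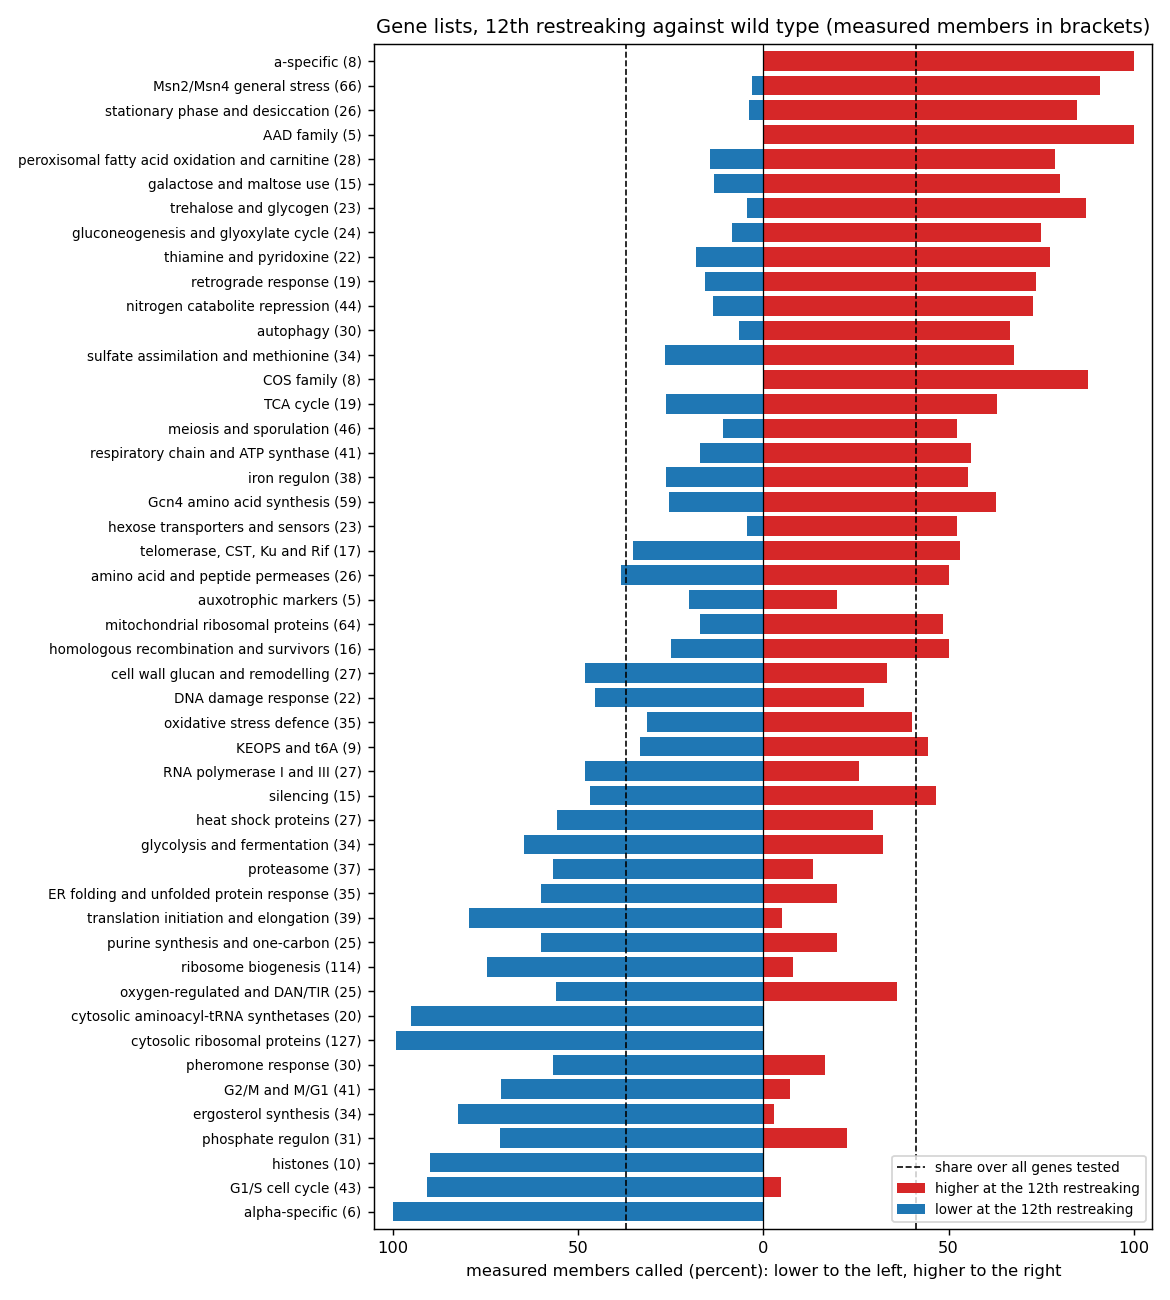
Share of the measured members of each of 48 gene lists called higher (right) or lower (left) at the 12th restreaking, in percent, with the shares over all 5449 genes as dashed lines (41.1% higher, 37.2% lower). Stress, carbon reserve and fatty acid lists lie at the top, and ribosomal protein, G1/S, histone and ergosterol lists at the bottom.

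Genes of the general stress response were higher in the deletion strain. The transcription factors Msn2 and Msn4 switch these genes on when growth slows or conditions worsen. Of 66 measured targets, 60 were called higher and 2 lower, and 43 were at least 2-fold higher. Their median log2 difference was 1.64, at 1.56, 1.67 and 1.65 on the 3 clones relative to the wild-type mean. FMP45, another Sur7 family gene, read 2394, 2304 and 2134 against 151, 147 and 138 (14.2-fold, limma adjusted p = 2.77e-13). DCS2 was 7.31-fold higher, TFS1, an inhibitor of carboxypeptidase Y, 4.23-fold and the mitochondrial phosphate carrier gene PIC2 4.05-fold. The 2 members called lower were SSA4 (1.16-fold) and ALD2 (1.20-fold). Of 26 genes tied to stationary phase and desiccation, 22 were higher, and PIL1 was lower by 1.07-fold, a direction that turned with quantile normalization. SNZ1, the partner of SNO1, read 4148, 4277 and 4107 against 350, 420 and 322 (11.1-fold).

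Reserve carbohydrate genes moved the same way, with 20 of 23 trehalose and glycogen genes higher and a median log2 difference of 0.95. TSL1, a subunit of trehalose synthase, read 4696, 4521 and 4744 against 1027, 930 and 1107, a 4.51-fold rise with no overlap. GAC1, which targets a phosphatase to glycogen synthase, was 11.1-fold higher, the debranching enzyme gene GDB1 4.398-fold and the glycogen synthase gene GSY2 3.29-fold. PGM1, the minor phosphoglucomutase gene, was the 1 member called lower, by 2.67-fold.

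Other stress lists did not show such a shift. Of 27 heat shock protein genes 8 were higher (29.6%) and 15 lower (55.6%). Their median log2 difference of -0.13 became 0.04 with quantile normalization, which called 8 lower. The nucleotide exchange factor gene SSE2 was 2.62-fold higher and the mitochondrial disaggregase gene HSP78 1.63-fold, while the abundant cytosolic chaperone genes HSC82 and SSA2 were 1.43-fold and 1.39-fold lower. Of 35 genes of oxidative stress defence 14 were higher (40%) and 11 lower (31.4%), beside 41.1% and 37.2% over all genes. The list median of -0.0044 changed sign with quantile normalization, and 18 were lower with array medians set equal. Its large members rose: the cytosolic catalase gene CTT1 read 2949, 3360 and 3207 against 319, 294 and 449 (8.74-fold), GPX1 was 3.68-fold higher and GTT2 2.65-fold. CCP1, mitochondrial cytochrome c peroxidase, was 1.76-fold higher.

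Most genes in pathways for carbon sources other than glucose were higher although the medium was YPD. Of 24 gluconeogenesis and glyoxylate cycle genes 18 were called higher, 11 of them at least 2-fold, and the median log2 difference was 0.89. The acetate transporter gene ADY2 read 911, 1093 and 971 against 52.3, 39.8 and 51.6 (15.8-fold, limma adjusted p = 5.82e-12). CAT8, the activator of gluconeogenic genes, was 10.6-fold higher, the peroxisomal citrate synthase gene CIT2 3.62-fold and the cytosolic malate dehydrogenase gene MDH2 2.72-fold. ADH2 and ATO3 were the 2 members called lower, by 1.51-fold and 1.53-fold. Not called were FBP1 (adjusted p = 0.143), MLS1 (adjusted p = 0.779), SFC1 (adjusted p = 0.866) and REG2 (adjusted p = 0.233). FBP1, MLS1 and SFC1 were dim, with means of 32.0, 19.3 and 16.9 at the 12th restreaking. Their wild-type means were 24.8, 19.2 and 16.4. Of 28 genes of peroxisomal fatty acid oxidation and carnitine transfer, 22 were higher and 4 lower, with a median of 1.00. The 4 lower were ANT1 (1.55-fold), PCS60 (1.23-fold), MDH3 (1.15-fold) and FAA1 (1.13-fold, a call lost with quantile normalization, adjusted p = 0.203). POT1 read 872, 1014 and 795 against 32.5, 21.8 and 31.0. PEX21, a receptor for peroxisomal import, was 7.47-fold higher, the carnitine acetyltransferase gene CAT2 6.52-fold and FOX2, the multifunctional beta-oxidation enzyme gene, 3.56-fold.

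Galactose and maltose genes were higher in 12 of 15 cases, with a median log2 difference of 0.98 (0.53 with quantile normalization). The maltose permease gene MAL31 was 5.91-fold higher, the regulator MAL13 3.78-fold, the invertase gene SUC2 2.32-fold and the galactokinase gene GAL1 2.18-fold. GAL2 (1.36-fold) and IMA5 (1.24-fold) were lower. Hexose transporter and sensor genes were higher in 12 of 23 (52.2%, beside 41.1% over all genes) and lower only in GAL2. HXT5, a transporter gene of slowly growing cells, read 1492, 1682 and 1362 against 103, 94.5 and 140 (12.0-fold higher). MIG2 was 3.19-fold higher, the glucose sensor gene SNF3 2.50-fold and HXT7 1.89-fold, although the probe set of HXT7 can also read relatives. Glycolysis and fermentation genes were lower in 22 of 34 and higher in 11. Their median of -0.17 became 0.02 with quantile normalization, which called 9 lower. The 4 named by smallest p were all higher: the aldehyde dehydrogenase genes ALD3 (18.6-fold) and ALD4 (2.51-fold), ADH5 (2.64-fold) and the hexokinase gene HXK1 (2.09-fold).

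Mitochondrial lists were shifted upwards by less, and that of the mitochondrial ribosomal proteins not under every scaling. Of 41 respiratory chain and ATP synthase genes 23 were higher and 7 lower, with a median log2 difference of 0.28 (0.17 with array medians set equal). HAP4, the activating subunit of the respiratory gene regulator, read 3522, 3589 and 3633 against 983, 973 and 935 (3.67-fold, limma adjusted p = 2.95e-12), and NDE1 was 1.88-fold higher. The cytochrome c isoform genes went opposite ways. CYC1, the main isoform, read 124, 143 and 126 against 684, 626 and 700, and was 4.66-fold lower. CYC7, the minor isoform, read 889, 1004 and 1013 against 147, 133 and 174, and was 5.91-fold higher. CYC1 was also low at the first restreaking, at 161, 131, 140 and 150 in the 4 clones.

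Of 19 TCA cycle genes 12 were higher and 5 lower, led by SDH2 of succinate dehydrogenase (2.69-fold), CIT1 (1.68-fold), IDH2 (1.67-fold) and IDH1 (1.65-fold). The 5 lower were LPD1 (1.45-fold), KGD1 (1.22-fold), FUM1 (1.21-fold), KGD2 (1.18-fold) and LSC1 (1.13-fold), of which KGD1, KGD2 and LPD1 encode the 2-oxoglutarate dehydrogenase complex. Genes of the retrograde pathway, which carries signals of mitochondrial dysfunction to the nucleus, were higher in 14 of 19, counting its regulators as well as its targets, with a median of 0.69, and GPX2 (1.86-fold), ATO3 and ADH3 (1.11-fold) were lower. ADH3 lost its call with quantile normalization (adjusted p = 0.96). Mitochondrial ribosomal protein genes were higher in 31 of 64 (48.4%, beside 41.1% over all genes) and lower in 11. Their median of 0.16 changed sign with quantile normalization, to -0.01, with 21 higher and 20 lower. RSM10 was 2.37-fold higher, MRPL44 1.73-fold, MRP49 1.6005-fold and MRPL36 1.47-fold.

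**Figure D3:**
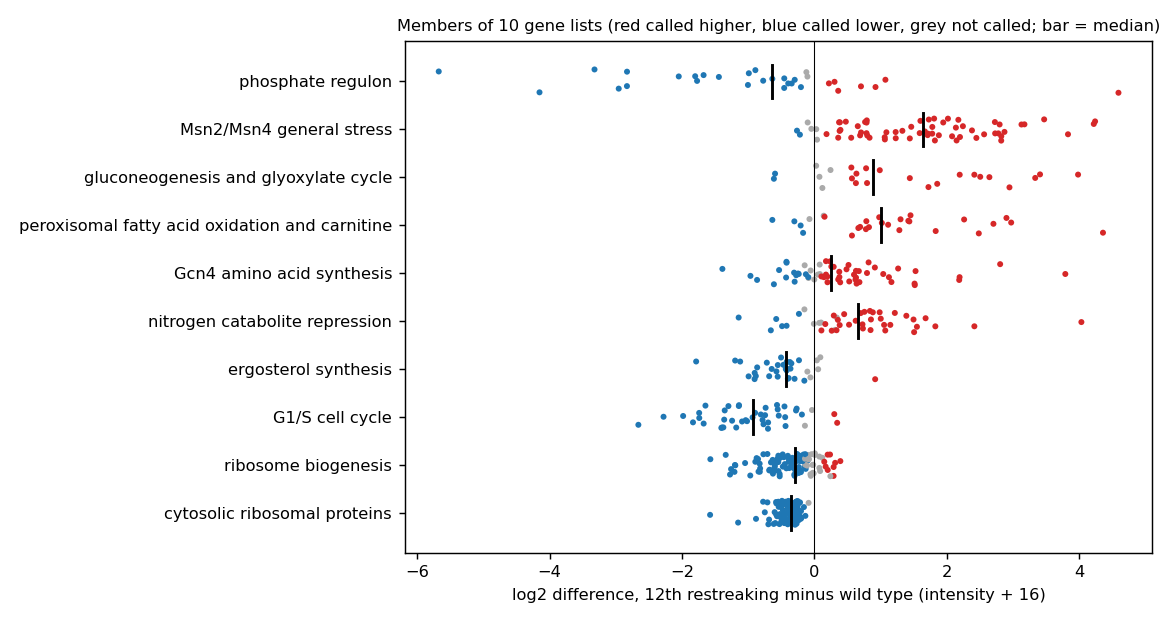
Log2 difference between the 12th restreaking and wild type (horizontal axis, intensity + 16) for every measured member of 10 gene lists, red where called higher, blue where called lower and grey where not called, with the list median as a bar. The stress list has a median of 1.64 and spreads to 4.24, and the ribosomal protein list lies close together around -0.36.

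The translation apparatus was lower as a group, by small amounts. Of 127 cytosolic ribosomal protein genes 126 were called lower and none higher, with a median log2 difference of -0.36, or 1.28-fold. With quantile normalization 99 were lower and the median was -0.18. RPL9B was the 1 gene not called (adjusted p = 0.0741), and it was lower with array medians set equal. RPS28B read 1216, 1005 and 1072 against 3172, 3522 and 3195 (2.98-fold lower), RPL22B was 2.22-fold lower, RPS17B 1.71-fold and RPS25B 1.61-fold. Most of these genes are bright. At 1000 or above, 124 of 125 were lower, beside 55.1% of the other genes of that brightness. Many have near-identical copies whose signal the probes may share.

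Ribosome assembly genes were lower in 85 of 114 and higher in 9 (4 with array medians set equal), with a median of -0.30. The assembly factor gene BFR2 read 447, 390 and 369 against 1215, 1264 and 1189 (2.97-fold lower), DBP7 was 2.42-fold lower and the processome genes UTP15 and UTP5 were 2.29-fold and 1.79-fold lower. All but 1 of 20 cytosolic aminoacyl-tRNA synthetase genes were lower, by little (median -0.32), with FRS2 1.68-fold, GLN4 1.48-fold, SES1 1.41-fold and GUS1 1.37-fold lower. DED81 was not called (adjusted p = 0.582). With quantile normalization the median was -0.17, with 13 lower and 2 higher, DED81 being 1 of the 2. Translation factor genes were lower in 31 of 39 and higher in 2, HEF3 (1.40-fold) and SUI2 (1.12-fold). HEF3 lost its call with quantile normalization (adjusted p = 0.127), which called 21 factors lower, and SUI2 lost it with array medians set equal (adjusted p = 0.479). ANB1, an eIF5A gene used when oxygen is short, was 4.34-fold lower, the eIF4G gene TIF4631 1.84-fold, and GCN20 and GCN1, which carry the uncharged tRNA signal to Gcn2, were 1.57-fold and 1.44-fold lower. Among 27 subunits and regulators of RNA polymerases I and III, 13 were lower (48.1%) and 7 higher (25.9%). Over all genes these shares were 37.2% and 41.1%. With array medians set equal 4 were higher. MAF1, the repressor of polymerase III, was 1.54-fold higher. RRN11 was 2.17-fold lower, RPC82 1.93-fold and RPO31 1.37-fold.

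Cell cycle genes were lower, most of all those of the G1/S wave. Of 43 measured, 39 were lower and 2 higher, 21 were at least 2-fold lower, and the median log2 difference was -0.93, at -0.84, -1.07 and -0.90 on the 3 clones. The cohesin gene MCD1 read 151, 150 and 141 against 664, 623 and 603 (3.95-fold lower, limma adjusted p = 1.07e-10). The G1 cyclin gene PCL1 was 4.85-fold lower, the DNA polymerase alpha subunit gene POL12 3.34-fold and SVS1 2.57-fold. The 2 that were higher were CLN3 (1.23-fold) and SWI4 (1.27-fold), which act upstream of the wave, and the call of SWI4 was lost with quantile normalization (adjusted p = 0.162). Histone genes were lower in 9 of 10, with a median of -0.74: the linker histone gene HHO1 was 2.18-fold lower, HTB2 2.03-fold, HHF1 1.80-fold and HTA2 1.68-fold. CSE4, the centromeric histone gene, was not called (adjusted p = 0.503), but was lower under both other scalings. Genes of G2/M and M/G1 were lower in 29 of 41 and higher in 3, with CDC6 2.55-fold, DSE1 1.72-fold, CDC5 1.56-fold and PIR1 1.56-fold lower. PCL9 (1.31-fold), BUD8 (1.23-fold) and DSE4 (1.11-fold) were higher. The calls of PCL9 (adjusted p = 0.26) and BUD8 (adjusted p = 0.0565) were lost with quantile normalization, and that of DSE4 with array medians set equal (adjusted p = 0.558). The labels give mid-log phase for all cultures, and no optical densities or growth rates were used here.

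Amino acid synthesis genes under Gcn4, the activator made when charged tRNA is short, were mixed with a tail of large rises. Of 59 measured, 37 were higher and 15 lower, 11 were at least 2-fold higher, and the median was 0.26 (0.14 with array medians set equal, 0.42 with quantile normalization). The argininosuccinate synthase gene ARG1 read 4233, 4277 and 4107 against 277, 269 and 324 (13.8-fold, limma adjusted p = 3.64e-13). ARG7 was 4.57-fold higher, PCL5, a cyclin that helps to degrade Gcn4, 4.55-fold and CPA1 2.86-fold. Sulfate assimilation and methionine genes, MET17 among them, were higher in 23 of 34 and lower in 9. STR3 was 3.43-fold higher, MET13 3.16-fold and STR2 2.71-fold, and SAM2, an S-adenosylmethionine synthetase gene, was 2.25-fold lower. Purine and one-carbon genes were lower in 15 of 25 and higher in 5, with ADE17 3.01-fold, ADE2 2.01-fold, ADE13 1.62-fold and SHM2 1.51-fold lower. The higher members were IMD2 (1.77-fold), ADE8 (1.21-fold), GCV1 (1.21-fold), GCV3 (1.16-fold) and BAS1 (1.13-fold), whose call was lost with array medians set equal (adjusted p = 0.381) and with quantile normalization (adjusted p = 0.345).

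Genes held down when good nitrogen sources are plentiful were higher in 32 of 44 cases, with a median log2 difference of 0.66. The proline permease gene PUT4 read 1504, 1843 and 1611 against 80.2, 85.1 and 91.9 (16.4-fold, limma adjusted p = 1.14e-12). The allantoicase gene DAL2 was 5.34-fold higher, the vacuolar protease gene PRB1 2.93-fold and the regulator UGA3 2.82-fold. Autophagy genes were higher in 20 of 30 and lower in 2, with ATG29 3.12-fold, ATG34 2.99-fold, ATG8 2.77-fold and ATG39 2.59-fold higher. The 2 lower were ATG18 (1.26-fold) and ATG27 (1.22-fold), and with quantile normalization 7 were lower. Amino acid and peptide permease genes divided into 13 higher (50%) and 10 lower (38.5%) of 26, beside 41.1% and 37.2% over all genes. PTR3, part of the plasma membrane amino acid sensor, was 3.47-fold higher and the permease gene AGP1 2.55-fold, beside the fall of PTR2.

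Most genes of the phosphate regulon were lower. The transcription factor Pho4 induces it when phosphate runs short, and 22 of its 31 measured genes were lower and 7 higher, with a median of -0.64. The high-affinity transporter gene PHO84 read 89.6, 75.8 and 78.8 against 5046, 5020 and 4770 (51.0-fold, limma adjusted p = 1.53e-14). SPL2, which lowers low-affinity transport, read 71.0, 84.4 and 70.0 against 1612, 1719 and 1477. The groups were far apart for both. The acid phosphatase gene PHO5 was 7.75-fold lower and the polyphosphate polymerase subunit gene VTC3 7.11-fold. In all, 12 members were at least 2-fold lower and 2 at least 2-fold higher. PHM7, among the largest rises above, reached a log2 difference of 4.59.

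Vitamin, metal and lipid lists also differed. Thiamine and pyridoxine genes were higher in 17 of 22 (median 0.76, or 0.40 with quantile normalization), with THI13 4.79-fold and SNO3 2.68-fold higher, both on probe sets that can read relatives. PDC5 (1.6008-fold), PDC2 (1.22-fold), THI7 (1.20-fold) and TPN1 (1.20-fold) were lower. Iron regulon genes were higher in 21 of 38 (55.3%) and lower in 10 (26.3%), beside 41.1% and 37.2% over all genes. Under both other scalings 19 were higher and 12 lower. The scaffold gene ISU1 was 2.72-fold higher, but the uptake genes FIT2 (4.03-fold), FRE1 (3.17-fold) and FTR1 (2.75-fold) were lower. Ergosterol synthesis genes were lower in 28 of 34 with a median of -0.43. ERG5, a late desaturase gene, read 571, 542 and 515 against 1983, 1853 and 1887 (3.45-fold), ERG6 was 2.29-fold lower, ERG4 1.87-fold and ERG10 1.65-fold. ECM22, a regulator of sterol genes, was the 1 higher, by 1.89-fold. Of 25 oxygen-regulated genes 14 were lower (56%) and 9 higher (36%). TIR1, a cell wall mannoprotein gene of cold and low oxygen, was 9.01-fold lower and the flavohaemoglobin gene YHB1 2.59-fold.

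Protein quality and wall lists changed modestly. Proteasome genes were lower in 21 of 37 and higher in 5. ECM29 was 2.26-fold lower, RPT2 1.58-fold and RPN1 1.34-fold, while RPN4, the activator of proteasome genes, was 1.53-fold higher. The other members called higher were RPN13 (1.22-fold), PRE10 (1.13-fold), PRE1 (1.11-fold) and PRE5 (1.08-fold), and 2 were higher with array medians set equal. Genes of ER folding were lower in 21 of 35 and higher in 7 (4 with quantile normalization), with SEC63 1.85-fold, LHS1 1.80-fold, PMT1 1.78-fold and STT3 1.59-fold lower. Cell wall genes were lower in 13 of 27 (48.1%) and higher in 9 (33.3%), beside 37.2% and 41.1% over all genes. Their median of 0.05 turned to -0.06 when array medians were set equal, and 14 were higher with quantile normalization. The stress kinase relative KDX1 was 3.99-fold higher, PIR3 3.39-fold, SKN1 2.12-fold and the cell integrity factor gene RLM1 2.11-fold.

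Because Sua5 has been linked to telomeres, telomere genes and chromosome ends were examined as a group of their own. The list of 17 telomere genes joins telomerase, the CST complex, Ku and the Rif proteins with other factors linked to telomeres, such as PIF1. Of these genes 9 were higher (52.9%) and 6 lower (35.3%). Over all genes tested these shares were 41.1% and 37.2%. All telomerase and CST genes of the list were called higher and its falls lay among the other members, a split made after the values were seen. The list median of 0.22 changed sign, to -0.05, with quantile normalization, which called 4 higher. The CST subunit genes TEN1 and STN1 were 2.22-fold and 1.94-fold higher, with TEN1 at 319, 325 and 326 against 156, 131 and 127. EST3 of telomerase was 1.66-fold higher, and PIF1, a helicase that removes telomerase, was 1.502-fold lower. Silencing genes divided evenly, 7 higher and 7 lower of 15 (46.7% each). SIR2, the silencing deacetylase gene, read 401, 396 and 390 against 752, 717 and 677 (1.78-fold lower, limma adjusted p = 7.69e-08), SIR3 was 1.52-fold lower and the methyltransferase gene DOT1 2.36-fold lower, while SAS5 was 2.06-fold higher.

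Recombination genes, which maintain telomeres in survivors of telomerase loss, changed by at most 1.58-fold. Of 16, with a median of 0.15, 8 were higher (50%) and 4 lower (25%), beside 41.1% and 37.2% over all genes. With quantile normalization that median became -0.17, with 1 higher and 8 lower. RMI1 was 1.58-fold higher. RDH54 (1.58-fold), TOP3 (1.44-fold), RAD52 (1.24-fold) and MRE11 (1.15-fold) were lower. RAD24 and RAD57 were 1.27-fold and 1.26-fold higher, calls that quantile normalization removed (adjusted p = 0.43 and 0.0621). The DNA damage list held 6 higher (27.3%) and 10 lower (45.5%) of 22, and its median of 0.0053 turned negative under both other scalings. Of its members 5 were at least 2-fold lower and 1 at least 2-fold higher, by 1.27 on the log2 scale. HUG1, a strongly damage-inducible gene, read 24.8, 23.0 and 23.5 against 107, 84.7 and 106 and was 2.89-fold lower. RNR1, the large ribonucleotide reductase subunit gene and also a G1/S gene, was 3.19-fold lower and TOS6 2.60-fold, and DDR48 was higher by 0.68 on the log2 scale.

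Genes near chromosome ends were more often higher than others. Places were counted over all protein-coding genes, measured or not. Of the 10 outermost at each end, 235 were measured in all, with 151 higher (64.3%) and 40 lower (17.0%). Of the remaining 5211 genes whose place is known, 40.1% were higher and 38.1% lower. The median log2 difference of the 235 end genes was 0.46, and 0.35 and 0.23 with array medians set equal and with quantile normalization. By place, 66.3% of the measured genes among the outermost 5 were higher and 62.8% among the next 5. The share was 47.8% at places 11 to 20, 34.5% at places 21 to 40 and 40.3% at places 41 and more. Without probe sets that can read several genes, 115 of 181 end genes were higher and 36 lower. End genes tend to be dim, so the shares were also taken by brightness. Among genes below 50, 34.1% of end genes and 25.1% of others were higher, and at 50 to 200 78.7% and 55.4%. At 200 to 1000 the shares were 74.0% and 47.3%, and at 1000 or above 48.6% and 25.8%. Brightness was not matched within these wide ranges, and its part was not tested. Chromosome medians relative to the wild-type mean differed little but ran wider in the deletion strain, from -0.04 to 0.13 on the late arrays and from -0.02 to 0.02 on the wild-type arrays. Chromosome III lay highest on each late clone, at 0.13, 0.10 and 0.10, and chromosome IX at 0.10, 0.09 and 0.10. Chromosome III also lay at 0.11 to 0.15 on the 4 arrays of the first restreaking.

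**Figure D4:**
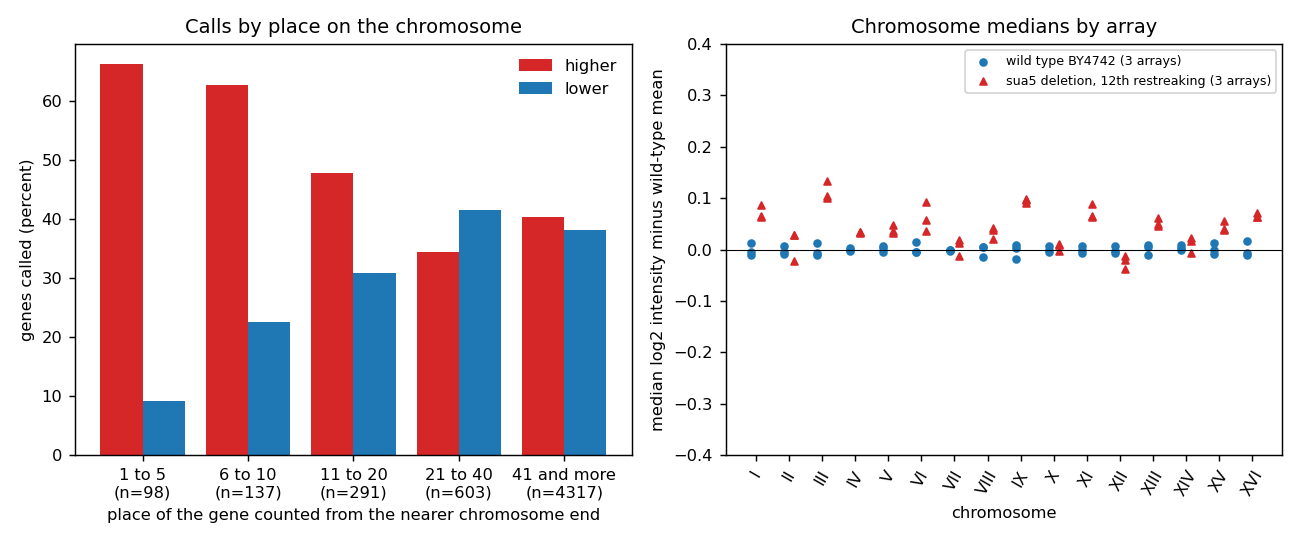
Left, share of genes called higher or lower at the 12th restreaking, in percent, by place counted from the nearer chromosome end. The share called higher falls from 66.3% at places 1 to 5 to 34.5% at places 21 to 40, and is 40.3% at places 41 and more. Right, median log2 intensity of each chromosome's genes minus the wild-type mean on each of the 6 arrays, between -0.04 and 0.13 at the 12th restreaking and between -0.02 and 0.02 in wild type. The wild-type arrays are set against their own mean, which narrows their range.

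Families found largely at chromosome ends were part of this. Of 8 COS genes, which encode subtelomeric membrane proteins, 7 were higher and none lower. COS12 read 513, 512 and 524 against 47.9, 50.4 and 39.5 (8.62-fold, limma adjusted p = 1.59e-11), COS8 was 4.5997-fold higher, COS7 3.04-fold and COS4 1.34-fold. COS6 was not called (adjusted p = 0.924). All 5 measured AAD genes, putative aryl alcohol dehydrogenases, were higher, with AAD10 at 3.72-fold, AAD6 at 2.21-fold, AAD3 at 1.91-fold and AAD4 at 1.71-fold. Members of both families resemble each other, so the signal of a single member is uncertain. Meiosis and sporulation genes, which haploid cells keep low, were higher in 24 of 46 and lower in 5, with a median of 0.34. With quantile normalization the median was -0.02, with 13 higher and 10 lower. SPO22 was 5.87-fold higher, RIM4 3.27-fold, REC8 3.10-fold and REC107 1.95-fold. GAS2 (2.10-fold), CRR1 (1.92-fold), SPO19 (1.92-fold), SPS4 (1.87-fold) and SMK1 (1.43-fold), which act late in sporulation, were lower.

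Late and early passage of the deletion were then compared directly, with 3 clones against 4 in a separate limma fit of these 7 arrays. All 3 late clones were low for MET17 and LYS2, like first clones 1 and 2, while first clones 3 and 4 were high for both. Passage is thus partly mixed with these markers, and the fit does not separate them. Far fewer genes were called. At the 12th restreaking 838 of 5449 were called (15.4%), 341 higher (6.26%) and 497 lower (9.12%). Only ARO9 was at least 2-fold higher (0.0184%) and 5 were at least 2-fold lower (0.0918%). The count depended on the clones, since it was 547 without 12th clone 1, 322 without clone 2 and 231 without clone 3. Replicate arrays of the first restreaking differed among themselves with an SD of log2 differences of 0.121 to 0.236, against 0.111 to 0.134 at the 12th. SUA5 lay under the limit on all 7 arrays.

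**Figure D5:**
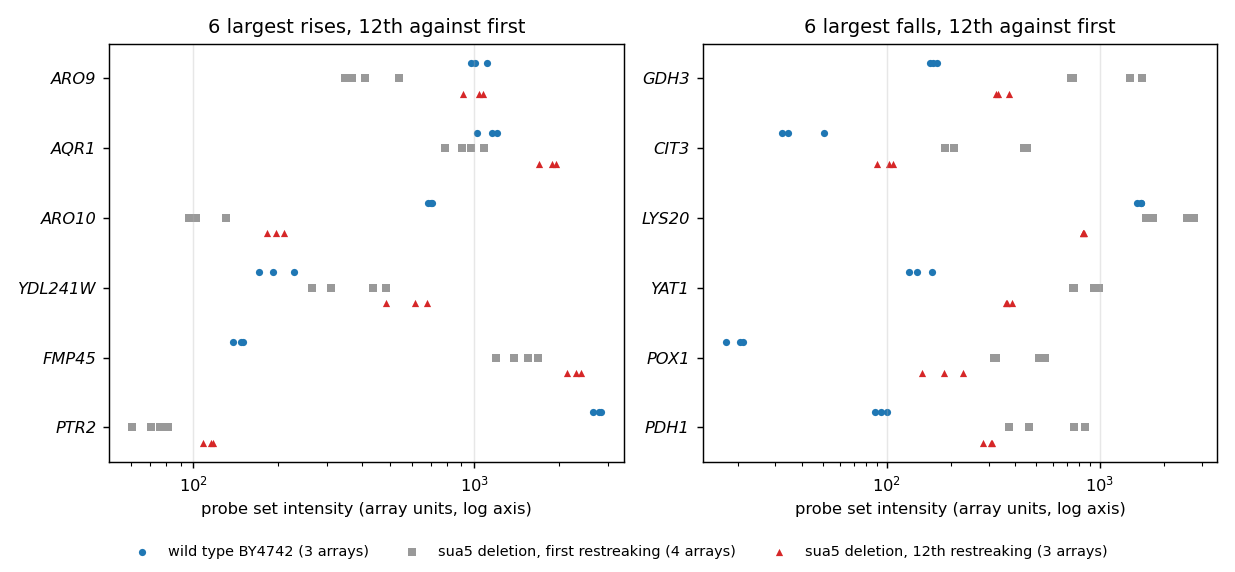
Probe set intensity on each array (log axis, array units) for the 6 largest rises and the 6 largest falls of the 12th restreaking (triangles, 3 arrays) against the first (squares, 4 arrays), with wild type (circles, 3 arrays) for reference. ARO9 lies at 915 to 1077 at the 12th restreaking, where wild type lies too, and at 347 to 538 at the first.

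The largest rise was in ARO9, which transaminates aromatic amino acids. It read 1036, 1077 and 915 at the 12th restreaking and 538, 367, 347 and 410 at the first (2.40-fold, limma adjusted p = 0.000742). Wild type read 1004, 976 and 1113, overlapping the late clones, and ARO9 was not called between those groups (adjusted p = 0.694). ARO10, the decarboxylase gene of the same Ehrlich pathway, was 1.63-fold higher than at the first restreaking (adjusted p = 0.00373) and 3.36-fold lower than wild type. AQR1, an exporter gene for amino acids, read 1952, 1886 and 1706 against 976, 901, 1084 and 787 at the first restreaking (1.97-fold, adjusted p = 0.00069). FMP45 was 1.57-fold higher and PTR2 1.48-fold higher than at the first restreaking. For the dubious reading frame YDL241W a rise of 1.59-fold was called (adjusted p = 0.0356), but not without 12th clone 2 (adjusted p = 0.115) or 3 (adjusted p = 0.139), or without first clone 1 (adjusted p = 0.0524) or 2 (adjusted p = 0.0852).

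The falls were in metabolic genes. GDH3, the glutamate dehydrogenase gene of slow growth, read 374, 333 and 323 against 1569, 1383, 733 and 744 at the first restreaking (2.96-fold lower, limma adjusted p = 0.00391), and 160, 164 and 171 in wild type. The late clones lay between wild type and every early clone. CIT3, a mitochondrial citrate and methylcitrate synthase gene, read 90.1, 107 and 103 against 454, 442, 187 and 207 and was 2.72-fold lower. YAT1, a carnitine acetyltransferase gene, was 2.24-fold lower (adjusted p = 0.000652) and POX1, the acyl-CoA oxidase gene, 2.16-fold lower. LYS20, a homocitrate synthase gene of lysine synthesis, read 834, 830 and 843 against 1771, 1645, 2762 and 2571, and wild type at 1493, 1554 and 1560 lay above all late clones. PDH1, of the methylcitrate cycle, was 1.88-fold lower (adjusted p = 0.0263), a call lost without first clone 2 (adjusted p = 0.0506) or any 12th clone (adjusted p = 0.0774 to 0.0827). For GDH3, CIT3, POX1 and PDH1 the early clones 1 and 2 lay above clones 3 and 4, the same pairs as for MET17 and LYS2. For LYS20 the same pairs lay the other way, clones 1 and 2 below clones 3 and 4. The part of this pairing in the result was not tested.

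Several metabolic lists held more falls than rises against the first restreaking. Of 28 fatty acid and carnitine genes 8 were lower and none higher, beside 9.12% lower over all genes. Without first clone 3, 13 were lower, and without a 12th clone 6 to 7. Of 44 genes under nitrogen repression 13 were lower and 2 higher, but 7 were lower without 12th clone 3. Gluconeogenesis genes were lower in 8 of 24, but in 1 without 12th clone 3 and in 4 without clone 1 or 2. For the iron regulon 11 of 38 were lower, FIT2, FTR1 and FRE1 among them, but 6 without any 1 of the 12th clones. For the Gcn4 list 11 of 59 were lower, but 4 to 6 without a 12th clone and 7 without first clone 3. For the Msn2 and Msn4 list 5 of 66 were higher and 4 lower, but 16 were higher without first clone 1 and 2 without 12th clone 2 or 3. Of 127 ribosomal protein genes 3 were higher and 3 lower, with at most 4 called either way when an array was left out. None of the 8 a-specific, 6 alpha-specific and 8 COS genes was called. Of the 235 end genes 53 were lower than at the first restreaking and 11 higher, beside 9.12% lower and 6.26% higher over all genes. How this count changes when an array is left out was not tested. COS12 read 152 and 135 in first clones 1 and 2 and 574 and 562 in clones 3 and 4, beside 512 to 524 at the 12th restreaking, and was not called (adjusted p = 0.246).

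The 3 late clones were close to each other, and most genes that varied most among them were dim. Apart from MET17 and LYS2, the widest spread above background was in IRC18, which read 270, 357 and 153 in clones 1 to 3 and 31.8, 25.3 and 31.3 in wild type. It was 5.78-fold higher than wild type with no overlap. YMR175W-A read 34.5, 73.8 and 54.7, and the others in this set (LEU2, LDS1, YMR315W-A and YOR293C-A) had at least 1 late clone under the background limit.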

How the data were processed

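The deposited series matrix holds 1 intensity per probe set and array on a linear scale, with a trimmed mean (2% off each end) of 500.2 on all arrays. The software that made it and the scaling step are not given in the sources used here. Per the labels' protocols, total RNA was purified on RNeasy columns with DNase, labelled with biotin by in vitro transcription and hybridised by Affymetrix standard protocols. Of 10928 probe sets, 7244 carry 1 gene name, 1 several and 3683 none (213 of them controls). After 1746 for Schizosaccharomyces pombe were set aside, 5498 probe sets gave 5449 genes, with the brightest kept for 47 genes that have several.

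Intensities were floored at 0 and tested as log2(intensity + 16) with limma 3.58.1 in R 4.3.3 (lmFit, and eBayes with an intensity trend), 2-sided, with Benjamini-Hochberg adjustment over the 5449 genes and a threshold of 0.05. Only the arrays of the 2 groups compared entered each fit, because clones of the first restreaking differ in pairs. The fit was tested on simulated data. Where all arrays of a group lay under the background limit, the fold is a lower bound against the higher of the limit and the signal. The number of arrays limits the precision.

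Genes named are SUA5, the 12 largest rises and falls, up to 4 members with the smallest p from each of 48 lists, all members of the mating-type, marker and t6A lists, the 6 largest rises and falls against the first restreaking, and the 8 most variable genes among the 12th clones. For the 12 largest rises and falls, only called genes with no overlap of deletion and wild-type values were eligible. The comparison, lists and tests were chosen with earlier results of these data known. COS111, which shares only its name with the COS family, was taken out of that list after its value was seen. Alternatives were other constants, scalings and filters, all 10 arrays, a replicate block, and leaving out each array. Replicate numbers did not pair samples across groups: deviations of same-numbered arrays correlated between -0.27 and 0.08.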

Additional observations from a re-analysis of the deposited data

Results flagged for a closer look

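Of the 279 genes named above, 60 differed between the 12th and the first restreaking by the limma fit of those 7 arrays (adjusted p below 0.05 over all genes), 21 being higher and 39 lower at the 12th. As log2 differences (12th minus first), the rises were ARO9 1.26, AQR1 0.97, ARO10 0.71, YDL241W 0.67, FMP45 0.65, PTR2 0.57, ADE17 0.40, PHO84 0.37, PRM5 0.37, SPO22 0.28, PRB1 0.27, TSL1 0.25, ADE2 0.23, DCS2 0.22, PGM1 0.21, SIR3 0.21, TCD2 0.20, PRE1 0.16, KGD2 0.14, RPT2 0.14 and GCN1 0.13. The larger falls were GDH3 -1.56, CIT3 -1.44, LYS20 -1.34, YAT1 -1.16, POX1 -1.11, PDH1 -0.91, FIT2 -0.84, ADY2 -0.73, SPS4 -0.66, HEF3 -0.57, HO -0.57 and CRR1 -0.55. The middle falls were HUG1 -0.49, HUR1 -0.48, MET13 -0.42, ALD2 -0.39, FTR1 -0.38, CLN3 -0.37, FRE1 -0.34, POL12 -0.34, SNO3 -0.34, ATG34 -0.32, FUS1 -0.31, SWI4 -0.31, DAL2 -0.30 and SST2 -0.28. The smaller falls were ATO3 -0.27, ERG5 -0.24, UGA3 -0.24, YNL018C -0.24, DOT1 -0.23, UTP5 -0.23, AAD10 -0.22, FAR1 -0.20, DSE1 -0.18, SAS5 -0.18, CPA1 -0.16, ARG1 -0.15 and KGD1 -0.14. ARO9, ARO10, PTR2, PHO84 and ADE17 thus stood nearer to wild type late than early, and HO, FIT2 and POL12 stood further below it. Among the falls, GDH3, CIT3, YAT1, POX1, PDH1 and ADY2 also stood nearer to wild type late, above it late and higher still early. LYS20 was above wild type early and below it late, by the means of 2187 at the first restreaking, 836 at the 12th and 1536 in wild type. Of the 60 calls, 35 were lost when some 1 array was left out, those of PHO84, FIT2, ADE17, HO, PDH1 and ADY2 among them. The other 25 held: ARO9, AQR1, ARO10, FMP45, PTR2, TSL1 and ADE2 among the rises, and GDH3, CIT3, LYS20, YAT1, POX1, SPS4, HEF3, CRR1, HUR1, MET13, FTR1, CLN3, POL12, SNO3, ATG34, DAL2, SST2 and UGA3 among the falls. The call of HO was lost without 12th clone 2 (adjusted p = 0.0866) or 3 (adjusted p = 0.103).

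A single array of the first restreaking stood apart from the other 3 for 8 of the 279 genes. This is a smaller share than the about 1 group in 20 that chance flags. The gap to the nearest array took the following share of the range of the 4 arrays: GLN4 0.863, HHF1 0.911, HO 0.879, HTA2 0.870, PCL1 0.914, PIL1 0.865, REC107 0.835 and SPO19 0.933. For HO it was clone 2, at 99.4 beside 148 to 154.

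Among 3470 probe sets with no gene name that are not controls, 228 lay above the background limit on all 6 arrays. Of the unnamed probe sets 7 were above it on the 3 arrays of the 12th restreaking and on no wild-type array, and 3 the other way round. At least a 2-fold difference without overlap was seen at 41 that were higher and 5 that were lower at the 12th restreaking. They were not assigned to genes here.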

How the results depend on the processing

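Against wild type, the count of 4267 genes lay between 3935 and 4286 under all alternatives, and between 4059 and 4249 when 1 array was left out. The 2-fold lower count moved from 156 to 235 with quantile normalization. Calls of single named genes that turned direction under a scaling were PRE5 (-0.011 with array medians set equal) and, with quantile normalization, ADH3 (0.0024), PIL1 (0.10) and PRM2 (-0.17), all small. Without 1 array or another, 15 named calls were lost, none above 1.46-fold: BAS1, BUD32, DSE4, FAA1, GAL2, HUR1, MRE11, PCC1, PIL1, PRE1, PRE5, PRM2, SUI2, TCD1 and YMR315W-A. Of the folds of named genes, none moved by over 1.5 times when an array was left out, while adding 1 or 64 in place of 16 moved those of dim genes: MF(ALPHA)2 was 266-fold or 58.8-fold lower and MET17 139.8-fold or 41.8-fold. Against the first restreaking, leaving out 1 array gave 231 to 798 genes, 61 to 325 higher and 170 to 473 lower, with 1 to 2 at least 2-fold higher. Quantile normalization gave 2 at least 2-fold higher. The cause was not tested.

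No pairing of samples was found, and replicate numbers of wild type come partly from the order of samples. With replicate number as a block, 3935 genes were called against wild type, and 414 against the first restreaking, 154 higher and 260 lower.

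The probe sets without shared matches at chromosome ends were chosen after seeing the data. With 3 arrays in a group, small differences in dim genes are the least certain.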
